A study of Mus musculus with 63 samples.

Results

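The 9 genes described here digest, take up and process dietary sugar in the small intestine. They were chosen by name from a table of 54752 genes, as Sis, Lct, Treh, Slc5a1, Slc2a2, Slc2a5, Khk, Fbp1 and G6pc, because Slc2a2 was lower after the deletion of CDK8 at days 3 and 5 and its course was to be set beside those of the disaccharidases and Slc5a1. Values of the organoids at days 3 and 5 therefore chose the members, and those values are a description, for which no p is given.

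RNA was sequenced from mouse small intestinal organoids, which are epithelium grown from crypts without mesenchyme, and from small intestinal epithelial cells (IECs) taken from mice. The study asked what is lost when the Mediator kinases CDK8 and CDK19 are removed from intestinal epithelium. All mice and organoids were on a C57BL/6 background, and Cdk8 fl/fl alleles were deleted by VillinCreERT2, a Cre recombinase that is expressed from the Villin promoter in epithelium and activated by 4-hydroxytamoxifen (4-OHT, 100 nM for organoids) or tamoxifen (80 mg/kg for mice). There were 3 libraries in each of 19 groups.

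A first set held 5 organoid lines, all collected 7 days after 4-OHT. These were VilCre (VillinCreERT2), Cdk8KO (VillinCreERT2; Cdk8 fl/fl), Cdk19KO (Cdk8 fl/fl; Cdk19 ko/ko, with no Cre, so that Cdk8 stays intact), C57 (C57BL/6 without any of these alleles) and DKO (VillinCreERT2; Cdk8 fl/fl; Cdk19 ko/ko). A time course held VillinCreERT2; Cdk8 fl/fl; Cdk19 ko/ko organoids given 4-OHT or its vehicle, ethanol (EtOH), and collected on day 3, day 5, day 7 or day 10. Organoids of that genotype were also grown for 10 days in Wnt3-conditioned medium (Wnt3-CM) after EtOH or 4-OHT. D173A organoids (VillinCreERT2; Cdk8 fl/fl; Cdk19 ko/D173A), whose remaining Cdk19 allele encodes a kinase-dead protein, were collected at day 7 after EtOH or 4-OHT. IECs came from VilCre and DKO mice 14 days after the last tamoxifen injection.

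The vehicle libraries of the time course and of Wnt3-CM carry Cdk19 ko/ko as well, so these comparisons concern Cdk8 deletion in cells that already lack CDK19. No 4-OHT-treated line with intact Cdk8 was in the time course, and effects of 4-OHT, of Cre activity and of Cdk8 deletion cannot be told apart there. By the numbers in the column names each group of organoids came from 1 line. The DKO line and the line of the time course and Wnt3-CM have the same genotype and different numbers, and every other genotype had a single line, which cannot be told apart from it. The labels do not say that organoid replicates were separate cultures, and p-values then measure only the spread between these libraries, which may be technical.

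Dietary sucrose, lactose and trehalose are split at the brush border of enterocytes by sucrase-isomaltase (Sis), lactase (Lct) and trehalase (Treh). Glucose and galactose then enter through the sodium-coupled transporter SGLT1 (Slc5a1) and fructose through GLUT5 (Slc2a5), while GLUT2 (Slc2a2) carries all of them across the basolateral membrane towards the blood. Inside the cell ketohexokinase (Khk) phosphorylates fructose, and fructose-1,6-bisphosphatase (Fbp1) and glucose-6-phosphatase (G6pc) are the closing steps of gluconeogenesis, by which small intestine can turn fructose into glucose.

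RefSeq promoters (GRCm38.p6) were found for 9 of the 9 genes. The 250 bases before the start site are shown for Slc2a2 and for the genes its course was set beside, 5′ to 3′ on the strand of the gene, with matches to 4 short motifs of intestinal transcription factors in capitals.
Slc2a2, chr3:28697653-28697902, plus strand: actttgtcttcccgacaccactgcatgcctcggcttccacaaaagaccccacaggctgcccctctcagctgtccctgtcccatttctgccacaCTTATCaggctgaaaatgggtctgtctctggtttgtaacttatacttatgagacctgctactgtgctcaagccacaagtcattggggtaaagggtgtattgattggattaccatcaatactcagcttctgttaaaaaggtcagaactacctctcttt
Sis, chr3:72967864-72968113, minus strand: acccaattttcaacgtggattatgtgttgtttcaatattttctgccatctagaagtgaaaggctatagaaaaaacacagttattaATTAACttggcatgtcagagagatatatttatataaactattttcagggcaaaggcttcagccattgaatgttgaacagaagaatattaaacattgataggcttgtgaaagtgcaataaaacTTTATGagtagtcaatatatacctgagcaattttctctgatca
Lct, chr1:128328319-128328568, minus strand: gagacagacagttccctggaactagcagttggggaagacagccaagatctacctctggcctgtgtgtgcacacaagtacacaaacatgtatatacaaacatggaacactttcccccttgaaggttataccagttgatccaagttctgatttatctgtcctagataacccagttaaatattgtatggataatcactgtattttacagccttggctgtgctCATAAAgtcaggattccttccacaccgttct
Treh, chr9:44672983-44673232, plus strand: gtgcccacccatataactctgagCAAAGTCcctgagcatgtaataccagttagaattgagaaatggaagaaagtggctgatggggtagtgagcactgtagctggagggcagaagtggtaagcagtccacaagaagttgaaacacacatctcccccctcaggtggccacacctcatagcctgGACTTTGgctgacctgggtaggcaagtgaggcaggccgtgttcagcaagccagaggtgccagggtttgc
Slc5a1, chr5:33103969-33104218, plus strand: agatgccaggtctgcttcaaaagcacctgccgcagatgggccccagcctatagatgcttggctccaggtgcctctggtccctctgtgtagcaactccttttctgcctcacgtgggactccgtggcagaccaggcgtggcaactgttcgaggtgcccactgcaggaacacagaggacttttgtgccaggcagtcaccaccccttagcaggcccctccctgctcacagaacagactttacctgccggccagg

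Both strands were searched. HNF1 was searched as the letters GTTAAT. The letters taken for CDX factors were TTTATG. For HNF4 the search used CAAAGTC, and the letters for GATA factors were GATAAG. No matches overlapped in these windows. The window of Slc2a2 held 1 match, to GATA, that began 157 bases before the start site, and 6.55% of 32851 mouse promoters of the same length held that motif. The Sis window held an HNF1 match at 165 bases (6.43% of promoters) and a CDX match at 43 bases (10.8% of promoters), and the Lct window held a CDX match at 31 bases. The Treh window held 2 HNF4 matches, at 227 and 69 bases (3.84% of promoters). The Slc5a1 window held none of the 4. A match describes letters only, and no binding was measured here.

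On GRCm38 Sis and Slc2a2 lie on the same chromosome, 3 (Sis at 72888557 to 72967863 on the minus strand, Slc2a2 at 28697903 to 28731359 on the plus strand), and Slc5a1 and Khk both on chromosome 5. Reads were counted over exons of the whole gene. Treh shares 2 exon bases with Phldb1 on the opposite strand, and the other 8 genes share none with another gene.

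Total counts ran from 15485959 to 21449826 for the 5 organoid lines, from 18369427 to 20884794 for the time course, from 19183905 to 20361097 for Wnt3-CM, from 25250188 to 32909565 for D173A organoids and from 18171558 to 19760132 for IECs. Levels are given as CPM, the count of a gene relative to the library total and scaled to a fixed total, adjusted by the normalization factor. Counts over the whole Cdk8 gene persisted in the groups labelled as deleted (DKO 65.1 to 67.2 CPM, Cdk8KO 78.0 to 83.1 CPM, VilCre 71.9 to 80.8 CPM). They were 42.8 to 47.2 CPM with 4-OHT and 47.7 to 50.2 CPM with EtOH at day 7 of the time course, and overlapped between the groups at days 3, 5 and 10, in Wnt3-CM (46.7 to 56.1 and 45.9 to 49.9 CPM), in D173A organoids and in IECs. The counts of Cdk19 stood at 24.7 to 26.0 CPM in Cdk19KO and 28.7 to 34.5 CPM in C57 organoids, so a whole-gene count gives no check of which alleles were deleted. Enterocyte markers were present in every group, with a summed level over 12 genes (Alpi, Apoa1, Fabp1, Vil1 and others) of at least 2767 CPM, and markers of immune cells summed to at most 0.775 CPM in organoids. The D173A EtOH and 4-OHT libraries whose columns are numbered 1 stood apart from the other libraries of their groups, and the 4-OHT library numbered 3 held liver markers. Their values are given with the D173A results.

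Per kilobase of exon, Sis and Slc5a1 were the 2 highest of the 9 genes in VilCre organoids and Slc2a2 and Lct the 2 lowest. The levels were 895 ± 110.3 CPM per kb for Sis, 561 ± 62.7 for Slc5a1, 227 ± 25.2 for Khk, 183 ± 26.2 for Slc2a5, 124 ± 16.2 for Fbp1, 65.7 ± 7.53 for Treh, 56.0 ± 7.83 for G6pc, 26.5 ± 2.92 for Slc2a2 and 8.05 ± 1.45 for Lct (SD, n = 3). Khk overlapped Slc2a5, and Treh overlapped G6pc, in the range of their 3 libraries, and no other neighbours in this order overlapped. In the vehicle organoids of the time course at day 7 the order was the same except that Fbp1, at 20.5 ± 5.75 CPM per kb, stood below Treh and G6pc, and Lct was at 1.54 ± 0.350 CPM per kb. VilCre IECs had another order. Slc5a1 led at 948 ± 54.3 CPM per kb, Sis followed at 557 ± 20.1, and Lct came next at 401 ± 34.8, with no overlap between any neighbours in the order. The organoid and IEC tables were fitted separately and the difference between them was not tested.

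**Figure D1:**
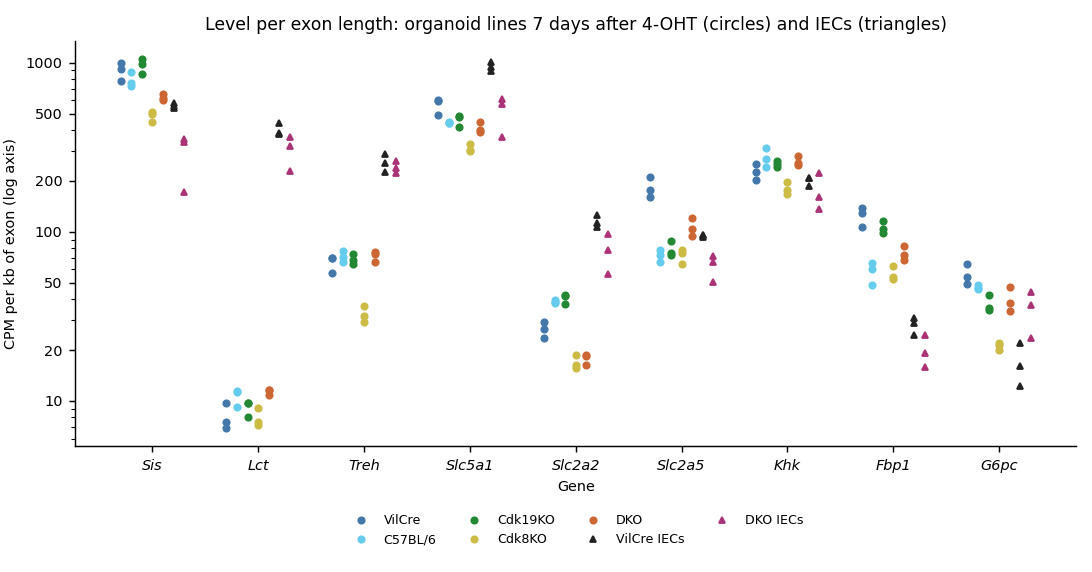
Level of each of the 9 genes in CPM per kb of exon (log axis), 1 point for each library, in 5 organoid lines 7 days after 4-OHT (circles) and in IECs 14 days after tamoxifen (triangles). Lct sits at 8.05 ± 1.45 CPM per kb in VilCre organoids and 401 ± 34.8 in VilCre IECs (mean ± SD), and the Cdk8KO points are the lowest of the 5 lines for Sis, Treh, Slc5a1 and G6pc.

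At day 3 all 9 genes were lower after 4-OHT than after EtOH in the time course, and by day 5 the genes had parted. Slc2a2 stood at 48.6, 38.0 and 42.2 CPM in the EtOH libraries at day 3 and at 7.91, 8.49 and 5.73 CPM in the 4-OHT libraries (log2 fold change -2.54 ± 0.13, where ± gives the SE here and with every log2 fold change below). At day 5 it was 64.0, 61.0 and 52.2 CPM with EtOH and 9.83, 11.0 and 9.71 CPM with 4-OHT (log2 fold change -2.53 ± 0.12). The groups were far apart at both days, and the difference was of the same size at each.

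Sis, by contrast, was 2635, 2625 and 2876 CPM with EtOH and 643, 856 and 779 CPM with 4-OHT at day 3 (log2 fold change -1.84 ± 0.18). At day 5 its groups overlapped, at 3071, 4342 and 2640.1 CPM with EtOH and 2919, 2773 and 2486 CPM with 4-OHT (log2 fold change -0.30 ± 0.18). Slc5a1 went from 1026, 885 and 943 CPM with EtOH to 393, 446 and 400.4 CPM with 4-OHT at day 3 (log2 fold change -1.20 ± 0.19), and the day 5 difference was smaller (log2 fold change -0.49 ± 0.19). Treh (log2 fold change -1.53 ± 0.12 at day 3 and -0.34 ± 0.11 at day 5) and Khk (-1.74 ± 0.13 and -0.50 ± 0.13) were also closer to the vehicle at day 5.

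Lct had low counts throughout the time course, and stood at 6.80, 11.0 and 7.13 CPM with EtOH and 3.42, 4.05 and 2.96 CPM with 4-OHT at day 3 (log2 fold change -1.26 ± 0.33). At day 5 the difference was -1.32 ± 0.33. Fbp1 had a larger difference at day 5 (log2 fold change -2.95 ± 0.25) than at day 3 (log2 fold change -1.65 ± 0.23). Its libraries read 36.0, 48.9 and 26.6 CPM with EtOH and 6.46, 4.62 and 3.38 CPM with 4-OHT at day 5. G6pc (log2 fold change -2.65 ± 0.42 at day 3, -1.42 ± 0.32 at day 5) and Slc2a5 (-1.84 ± 0.32 and -1.48 ± 0.28) lay between these courses.

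Genes are called changed here with an adjusted p below 0.05 together with a change of more than 1.5-fold, the cutoffs of the study. At days 3 and 5 the cutoffs only describe what was selected. At day 3, 9 of the 9 genes lay past them on the lower side, where 5.95% of 15447 tested genes did, and 0 on the higher side (6.42% of genes). At day 5 it was 5 of 9 on the lower side (4.62% of genes) and 0 on the higher (8.58%). These counts follow from how the genes were chosen. The gene just inside the cutoffs at day 5 was Lct and the gene just outside was Khk, with the values above.

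The 12 enterocyte markers moved with the genes at day 3. Their summed level was 4735 to 5335 CPM with EtOH and 2767 to 3283 CPM with 4-OHT, and 10 of 12 had a lower level with 4-OHT. At day 5 the sums overlapped (6815 to 8795 and 7737 to 8209 CPM), at day 7 they were 7299 to 8912 CPM with EtOH and 11201 to 11986 CPM with 4-OHT, and at day 10 5567 to 6408 and 8062 to 9475 CPM. In bulk libraries fewer enterocytes and less RNA in each cannot be told apart, and the part of the markers in the result was not tested.

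**Figure D2:**
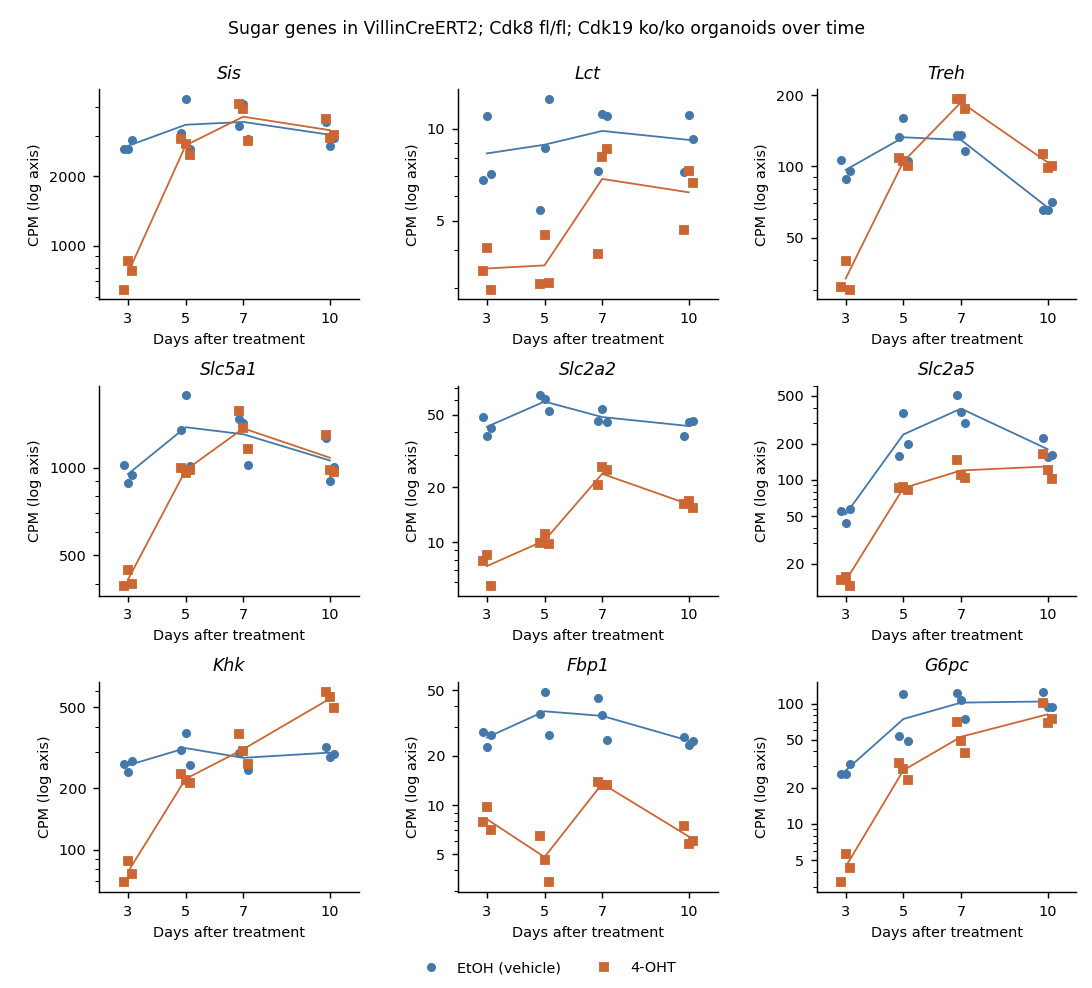
CPM (log axis) of the 9 genes by day after EtOH (blue circles) or 4-OHT (orange squares) in VillinCreERT2; Cdk8 fl/fl; Cdk19 ko/ko organoids, with 1 point for each of the 3 libraries and lines through the means. Sis and Slc5a1 with 4-OHT meet the vehicle by day 7, while Slc2a2 and Fbp1 stay below it at every day.

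Day 7 and day 10 were tested. Slc2a2 stayed down at both days. It was 46.4, 53.8 and 45.4 CPM with EtOH and 20.5, 25.7 and 24.9 CPM with 4-OHT at day 7 (log2 fold change -1.03 ± 0.11, adjusted p = 2.20e-08 by edgeR's quasi-likelihood test). At day 10 it was 38.1, 45.5 and 46.5 CPM with EtOH and 16.2, 16.8 and 15.3 CPM with 4-OHT (log2 fold change -1.43 ± 0.12, adjusted p = 1.15e-10). The 4-OHT libraries lay below every EtOH library on each day, in 3 of 3.

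Neither Sis nor Slc5a1 differed in this way. Sis was 3303, 4126 and 2912 CPM with EtOH and 4111, 3934 and 2856 CPM with 4-OHT at day 7 (log2 fold change 0.08 ± 0.17, adjusted p = 0.758), and the log2 fold change at day 10 was 0.07 ± 0.17 (adjusted p = 0.793). For Slc5a1 the values were 0.07 ± 0.18 (adjusted p = 0.798) at day 7 and 0.03 ± 0.18 (adjusted p = 0.910) at day 10. The groups of both genes overlapped on both days.

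Trehalase had its higher levels with 4-OHT. Treh was 136, 136 and 116 CPM with EtOH and 192, 193 and 175 CPM with 4-OHT at day 7, a difference under the fold cutoff (log2 fold change 0.53 ± 0.11, adjusted p = 4.64e-04). At day 10 it rose from 65.2, 65.5 and 70.4 CPM to 113, 98.9 and 100.3 CPM (log2 fold change 0.63 ± 0.12, adjusted p = 9.70e-05), and without the day 10 4-OHT replicate 1 it was under the fold cutoff (0.57, adjusted p = 0.00118). Lct, the disaccharidase for lactose, was not past the cutoffs at either day (-0.52 ± 0.30, adjusted p = 0.176 at day 7, -0.57 ± 0.31 (adjusted p = 0.146) at day 10), and its groups overlapped. With only the day 10 groups in the fit Lct passed both cutoffs on the lower side (-0.59, adjusted p = 0.0184).

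The fructose transporter Slc2a5 fell at day 7, from 506, 370.2 and 300.2 CPM to 147, 109 and 103 CPM (log2 fold change -1.71 ± 0.27, adjusted p = 6.67e-05). At day 10 its groups overlapped (225, 154 and 162 CPM with EtOH, 165, 122 and 102 CPM with 4-OHT, log2 fold change -0.48 ± 0.27, adjusted p = 0.166). Ketohexokinase, which acts on the fructose it brings in, was near the vehicle at day 7 (0.14 ± 0.13, adjusted p = 0.393) and rose at day 10, from 318, 286 and 294 CPM to 596, 561 and 495 CPM (log2 fold change 0.88 ± 0.13, adjusted p = 9.63e-06).

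Fbp1 fell at day 7, from 44.5, 35.1 and 25.0 CPM to 13.9, 13.3 and 13.3 CPM (log2 fold change -1.37 ± 0.22, adjusted p = 3.64e-05), and at day 10, from 26.1, 23.2 and 24.6 CPM to 7.46, 5.80 and 6.04 CPM (log2 fold change -1.94 ± 0.24, adjusted p = 2.05e-06). G6pc fell at day 7, from 123, 107 and 74.9 CPM to 70.8, 49.0 and 39.1 CPM (log2 fold change -0.94 ± 0.31, adjusted p = 0.0185), and this call was lost without EtOH replicate 1 (-0.79, adjusted p = 0.0730), 4-OHT replicate 2 (-0.90, adjusted p = 0.0591) or 4-OHT replicate 3 (-0.78, adjusted p = 0.0769). At day 10 G6pc overlapped between the groups (-0.36 ± 0.30, adjusted p = 0.365).

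In all, 4 of 9 genes fell at day 7 (9.25% of 15447 tested genes did) and 0 rose (9.005% of genes did), with a median log2 fold change of -0.52 over the 9 against -0.01 over all genes. At day 10, 2 fell (6.92% of genes) and 2 rose (8.86%), with medians of -0.36 and 0.0196.

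The 4-OHT effect was then compared between day 10 and day 7, as the difference of the log2 fold changes. It was higher at day 10 for Khk (0.74 ± 0.18, adjusted p = 0.00725) and Slc2a5 (1.23 ± 0.38, adjusted p = 0.0348), which is 2 of 9 genes where 2.98% of genes were past the cutoffs, and for 0 of 9 was it lower (3.42% of genes). The Slc2a5 call was lost on leaving out any of 7 of the 12 libraries (day 7 EtOH replicate 1 and 4-OHT replicates 2 and 3, day 10 EtOH replicates 2 and 3 and 4-OHT replicates 1 and 2), with a difference between 1.02 and 1.27 in these fits. It was also lost without a filter on low counts (1.21, adjusted p = 0.0682) and with only these 4 groups in the fit (1.24, adjusted p = 0.0516). For Slc2a2 the difference between the days was -0.39 ± 0.16 (adjusted p = 0.0935). In the vehicle itself Slc2a5 fell from day 7 to day 10 (log2 fold change -1.12 ± 0.27, adjusted p = 0.00193), as did Treh (log2 fold change -0.95 ± 0.11, adjusted p = 3.36e-07). These were 2 of 9 genes lower in the later vehicle (13.9% of genes) with 0 higher (9.39%), and Fbp1 passed too without the day 7 EtOH replicate 3 (-0.69, adjusted p = 0.00603).

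Because Slc2a2, Sis, Lct and Slc5a1 were counted in the same libraries, their ratio does not depend on scaling between libraries. At day 5 the log2 ratio of Slc2a2 to Sis counts was -5.80 ± 0.31 and -8.06 ± 0.13 (mean ± SD with EtOH and with 4-OHT, n = 3), a difference of -2.26, where that at day 3 was -0.70. Against Slc5a1 the differences were -1.35 at day 3 and -2.08 at day 5, and against Lct -1.32 and -1.28. Slc2a2 was thus lower by more than Sis and Slc5a1 were, and the gap to both widened at day 5.

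At day 7 the ratio to Sis was -6.14 ± 0.13 and -7.25 ± 0.40, a difference of -1.11, and at day 10 the difference was -1.49. Against Slc5a1 it was -1.11 and -1.45. In these 4 comparisons no 4-OHT library reached an EtOH library, and the exact permutation test, two-sided, gave p = 0.1, the smallest that 3 libraries against 3 allow. The ratio to Lct, -0.46 at day 7 with overlapping groups (exact permutation p = 0.3), was -0.85 at day 10 with none (exact permutation p = 0.1). The 30 ratios tested in this report came from 10 comparisons, and none could pass 0.05.

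**Figure D3:**
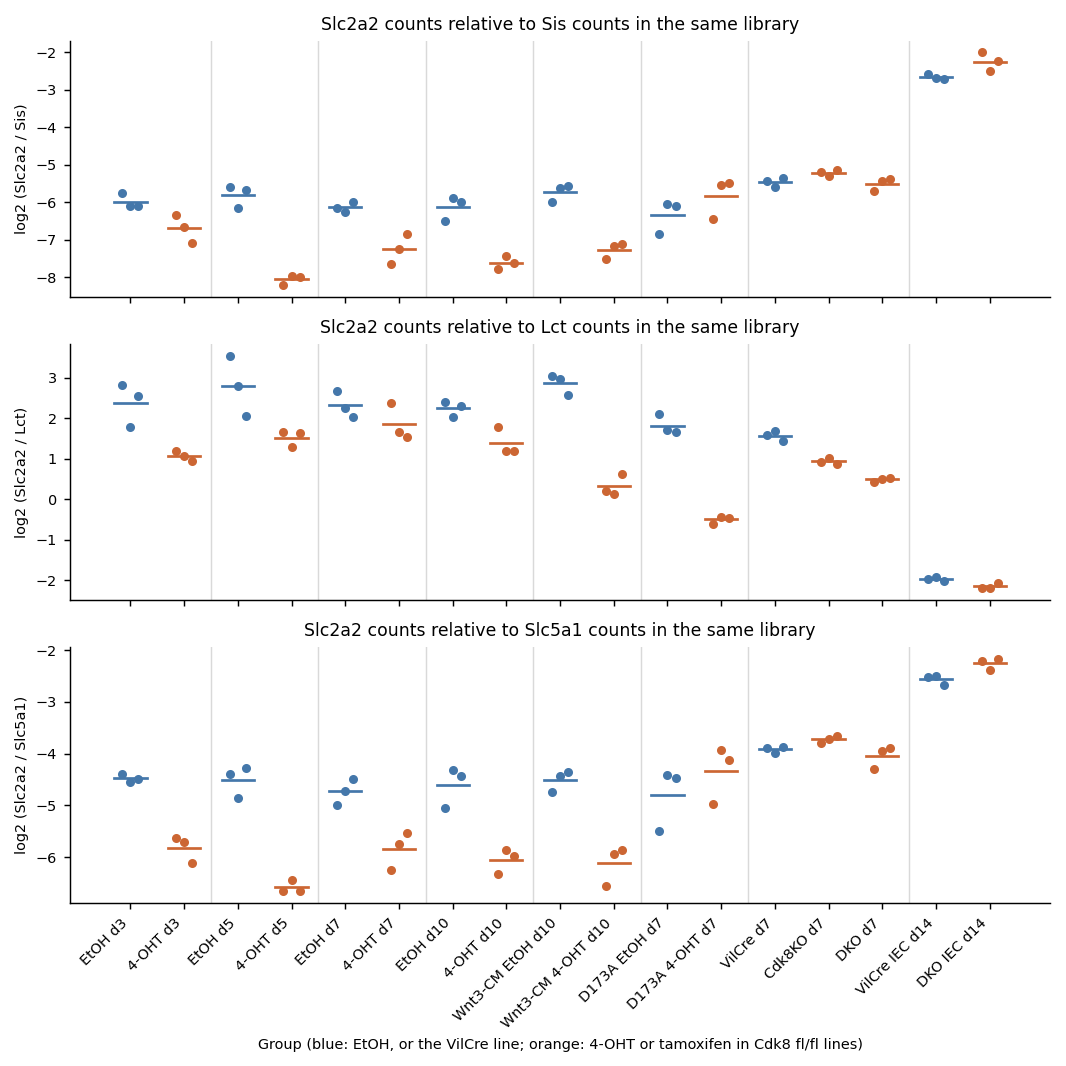
log2 ratio of Slc2a2 counts to Sis, Lct or Slc5a1 counts within each library (points) and the group mean (bars), for the time course, Wnt3-CM, D173A organoids, the VilCre, Cdk8KO and DKO lines, and IECs. Blue marks EtOH or the VilCre line and orange 4-OHT or tamoxifen in Cdk8 fl/fl lines, and at days 5, 7 and 10 and in Wnt3-CM the orange points of the ratios to Sis and Slc5a1 lie wholly below the blue.

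The genes whose level followed Slc2a2 most closely over the 24 time course libraries were Irf8 (Pearson r = 0.95 of log2 CPM), Phb2 (0.92), Fbp1 (0.91), Cluh (0.90) and Fut8 (0.89), out of 11597 genes. Irf8 encodes an interferon regulatory factor, Phb2 a prohibitin of the mitochondrial inner membrane, Cluh a binder of mRNAs for mitochondrial proteins and Fut8 a fucosyltransferase. Fbp1 was thus the closest of the other 8 sugar genes, Lct was ranked 23, Slc2a5 121, G6pc 134, Slc5a1 190, Sis 226, Khk 674 and Treh 734. These libraries share treatment and day, which chose Slc2a2, and the correlations are a description. At day 5 the log2 fold changes of the 4 genes other than Fbp1 lay between -0.53 (Phb2) and -0.42 (Fut8), where that of Slc2a2 was -2.53.

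Other genes of sugar handling were counted from lists that left out the 9. Of all genes 9.005% rose and 9.25% fell at day 7, and 8.86% and 6.92% at day 10, and the lists' counts stand beside these shares. At day 3 triokinase, an enzyme of fructose breakdown, lay low with them (Tkfc from 1881 to 421 CPM), while the aldo-keto reductase Akr1b8 was higher (from 9.21 to 25.3 CPM). At day 7 Tkfc was still lower (from 3540.4 to 1906 CPM, log2 fold change -0.89 ± 0.16, adjusted p = 1.72e-04), with 1 of 7 fructose and polyol genes lower and 2 higher, and at day 10 0 were lower and 2 higher. Of the listed transporters of the Slc2a and Slc5a families outside the 9 genes, 5 of 9 tested rose at day 7 with 0 lower, and 7 of 9 at day 10 with 1 lower. Not all of these carry hexoses. Among them were Slc5a11, a sodium-coupled inositol transporter (from 6.72 to 22.9 CPM, log2 fold change 1.77 ± 0.12, adjusted p = 1.45e-12), and Slc2a9, a urate transporter (from 21.3 to 55.0 CPM at day 7, log2 fold change 1.37 ± 0.10, adjusted p = 4.05e-12).

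The other disaccharidase, maltase-glucoamylase (Mgam), was not past the cutoffs at any of the 4 days. Of 6 galactose genes 0 rose and 0 fell at day 7. Of the 7 tested genes of glucose release and gluconeogenesis 1 rose at day 7, Pck1, which had about 1 CPM (from 0.936 to 2.23 CPM), and 1 fell at day 10, the mitochondrial Pck2 (from 116 to 55.6 CPM, log2 fold change -1.06 ± 0.14, adjusted p = 2.94e-06). The glucose-responsive target Txnip was lower at day 3 (from 868 to 317 CPM) and fell at day 10 (from 500.2 to 263 CPM, log2 fold change -0.92 ± 0.13, adjusted p = 5.89e-06), and the factor behind it, Mlxipl (ChREBP), was lower at day 3 (from 819 to 526 CPM). Among 10 enterocyte transcription factors Hnf4g (from 193 to 75.6 CPM) and Cdx1 (from 325 to 172.6 CPM) were lower at day 3, and Ppargc1a alone passed the cutoffs, upwards, at day 7 (from 12.8 to 30.1 CPM, log2 fold change 1.24 ± 0.15, adjusted p = 4.77e-07) and at day 10.

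Among the 5 organoid lines, most of the genes had lower levels in the Cdk8KO line than in the VilCre line, both given 4-OHT. In Cdk8KO against VilCre organoids 7 of 9 fell (4.34% of 15125 tested genes did) and 0 rose (2.90%), with a median log2 fold change of -0.88 against 0.0217 over all genes. G6pc fell most, from 119, 131 and 156 CPM to 53.4, 52.0 and 48.2 CPM (log2 fold change -1.40 ± 0.12, adjusted p = 1.10e-06). Slc2a5 fell from 545, 604 and 721 CPM to 265, 254 and 220.5 CPM (log2 fold change -1.34 ± 0.12, adjusted p = 2.12e-06), and Fbp1 by a log2 fold change of -1.13 ± 0.12 (adjusted p = 1.06e-05). Every Cdk8KO library lay below every VilCre library for each of these genes.

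The brush border genes fell with them. Sis went from 5788, 7411 and 6842 CPM to 3340.2, 3702 and 3812 CPM (log2 fold change -0.88 ± 0.09, adjusted p = 2.18e-07), Treh changed by -1.01 ± 0.09 (adjusted p = 4.12e-08) and Slc5a1 by -0.84 ± 0.07 (adjusted p = 5.38e-09). Slc2a2 fell the least of the 7, from 135, 154 and 169 CPM to 90.8, 93.9 and 108 CPM (log2 fold change -0.65 ± 0.08, adjusted p = 1.17e-06), and was under the fold cutoff without VilCre replicate 3 (-0.56, adjusted p = 6.17e-06). The ratio of Slc2a2 to Sis was higher in Cdk8KO by 0.24 and to Slc5a1 by 0.19 on the log2 scale, in both without overlap (exact permutation p = 0.1), which is the opposite direction to these ratios in the time course. The control lines differed by more in these ratios. They were higher in C57 than in VilCre organoids by 0.73 (Sis) and 0.89 (Slc5a1), without overlap (exact permutation p = 0.1). The C57 ratio to Lct was higher by 0.14, with overlap (exact permutation p = 0.5). The ratio to Lct was lower in Cdk8KO, by -0.63, also without overlap (exact permutation p = 0.1), as in the time course at day 10. Khk (-0.33 ± 0.09, adjusted p = 0.00643) and Lct (-0.02 ± 0.13, adjusted p = 0.927) were not past the cutoffs. The enterocyte markers summed to 10502 to 12492 CPM in VilCre and 8303 to 9803 CPM in Cdk8KO organoids, and the distal markers (Fabp6, Slc10a2 and others) to 333 to 681 and 144 to 162 CPM, and their part in the result was not tested.

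With Cdk19 deleted and Cdk8 intact, Fbp1 was the 1 gene of 9 that changed. It rose from 83.1, 103 and 111 CPM in C57 to 198, 177 and 167 CPM in Cdk19KO organoids (log2 fold change 0.87 ± 0.12, adjusted p = 2.35e-04), where 2.86% of genes rose and 2.39% fell. Slc2a2 was 219, 223 and 228 CPM and 242, 243 and 215 CPM, with overlap (log2 fold change 0.06 ± 0.07, adjusted p = 0.643). The other 7 genes were not past the cutoffs either, G6pc among them (-0.33 ± 0.12, adjusted p = 0.0815). With an unadjusted p under 0.05 there were 3 of 9 genes, and 4204 of all genes.

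In DKO against VilCre organoids 2 of 9 genes fell (7.95% of genes did) and 0 rose (11.5%), with medians of -0.49 over the 9 and -0.00210 over all genes. These were Slc2a5, from 545, 604 and 721 CPM to 413, 321 and 352 CPM (log2 fold change -0.78 ± 0.12, adjusted p = 7.99e-05), and Fbp1 (log2 fold change -0.74 ± 0.12, adjusted p = 1.40e-04). Slc2a2 was 135, 154 and 169 CPM in VilCre and 94.0, 106 and 108 CPM in DKO organoids, with no overlap and a difference just under the fold cutoff (log2 fold change -0.57 ± 0.08, adjusted p = 1.80e-06). It passed that cutoff without VilCre replicate 1 (-0.65, adjusted p = 1.47e-07), DKO replicate 2 (-0.59, adjusted p = 1.02e-05) or DKO replicate 3 (-0.59, adjusted p = 1.46e-05), and without VilCre replicate 1 the count of genes that fell became 4 with Sis (-0.61, adjusted p = 2.74e-06). Lct was higher by less than the cutoff (0.50 ± 0.13, adjusted p = 0.00406) and past it without VilCre replicate 3 (0.66, adjusted p = 3.45e-05), and G6pc (-0.49 ± 0.12, adjusted p = 0.00270) was past it without DKO replicate 1 (-0.64, adjusted p = 3.00e-05). Sis (-0.52 ± 0.09, adjusted p = 5.07e-05) and Slc5a1 (-0.45 ± 0.07, adjusted p = 1.70e-05) were lower by about as much as Slc2a2. The ratio of Slc2a2 to Sis differed by -0.05 and to Slc5a1 by -0.12, with overlap (exact permutation p = 0.6 for each), where these ratios did not overlap in the time course, whose organoids share the genotype but not the line or the control. The ratio to Lct differed by -1.08 with no overlap (exact permutation p = 0.1). From VilCre to DKO organoids the enterocyte markers went from 10502 to 12492 to 14669 to 15329 CPM in sum and the Paneth cell markers from 2778 to 2903 to 854 to 890.0 CPM. The proximal markers went from 1848 to 2549 to 3038 to 3211 CPM and the distal ones from 333 to 681 to 173.2 to 231 CPM, and the part of these in the result was not tested.

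Cdk8KO and DKO are both set against the same VilCre libraries, so their changes are not independent. C57 and VilCre organoids, the 2 controls, themselves differed in Slc2a5, at 224, 249.8 and 265 CPM in C57 (log2 fold change -1.34 ± 0.12, adjusted p = 3.34e-07), and Fbp1 (log2 fold change -1.10 ± 0.12, adjusted p = 2.86e-06). These are 2 of 9 genes lower in C57 (10.9% of genes were) and 0 higher (15.5%). Slc2a2 was higher in C57 by less than the fold cutoff (0.55 ± 0.08, adjusted p = 1.27e-06), and past it without VilCre replicate 3 (0.63, adjusted p = 2.48e-07) or with upper quartile scaling (0.64, adjusted p = 2.42e-07). The Slc2a5 levels of C57 and Cdk8KO organoids lay close to each other (246 ± 20.7 and 247 ± 23.3 CPM, SD, n = 3), a spread between control lines as large as the difference between Cdk8KO and VilCre organoids.

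The DKO change was also set against the sum of the single changes (Cdk8KO against VilCre plus Cdk19KO against C57). It was higher than the sum for 4 of 9 genes (11.3% of genes were) and lower for 0 (8.34%). Treh, which fell in Cdk8KO and stood at 151, 157 and 137 CPM in DKO organoids, differed from the sum by 1.21 ± 0.12 (adjusted p = 1.86e-07), and G6pc by 1.24 ± 0.17 (adjusted p = 5.28e-05). Lct (0.73 ± 0.18, adjusted p = 0.00450) and Khk (0.66 ± 0.12, adjusted p = 2.68e-04) were the other 2, and Khk was under the fold cutoff without C57 replicate 3 (0.57, adjusted p = 3.78e-04). For Slc2a2 the difference from the sum was 0.02 ± 0.11 (adjusted p = 0.919).

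**Figure D4:**
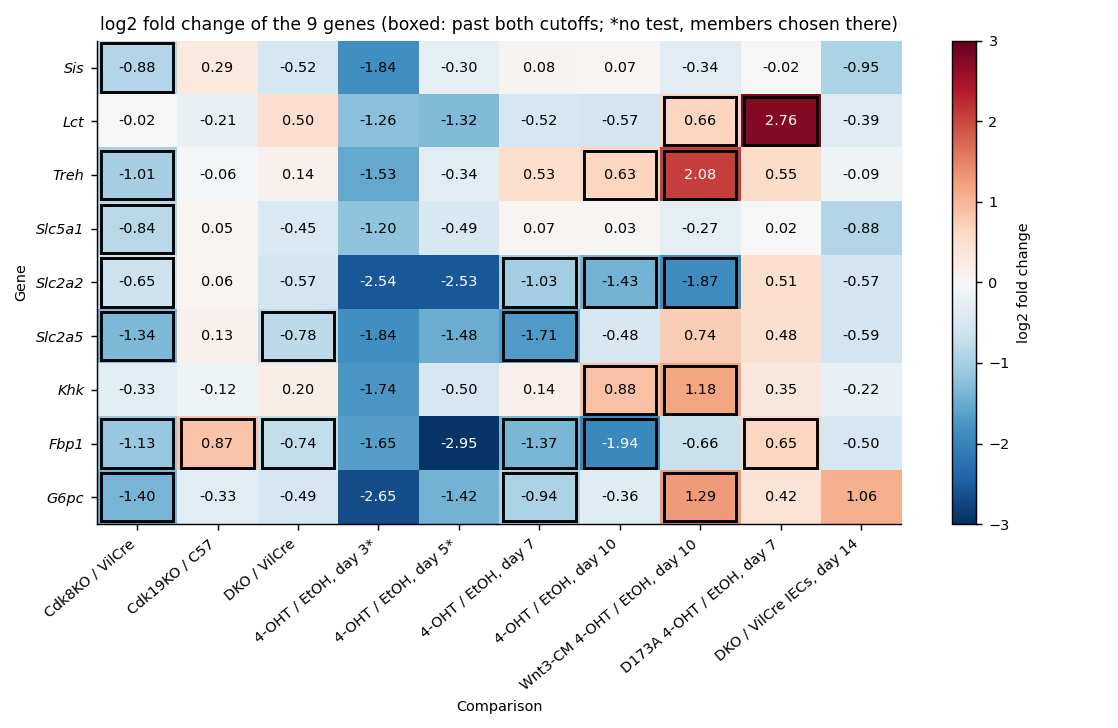
log2 fold change (colour and number) of the 9 genes in 10 comparisons, with a box where the adjusted p was under 0.05 and the fold change over 1.5. Days 3 and 5 carry no box because their values chose the genes, and Slc2a2 is boxed on the lower side in Cdk8KO organoids, at days 7 and 10 and in Wnt3-CM.

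Wnt3-CM supplies from outside the Wnt3 that Paneth cells make. In it, Slc2a2 fell with 4-OHT, from 77.6, 82.7 and 86.4 CPM to 18.9, 24.7 and 23.7 CPM at day 10 (log2 fold change -1.87 ± 0.09, adjusted p = 7.64e-13). This was 1 of 9 genes that fell (7.42% of 13745 tested genes did), and 4 rose (9.45%), with medians of 0.66 over the 9 and 0.000726 over all genes. Sis (-0.34 ± 0.08, adjusted p = 0.00166) and Slc5a1 (-0.27 ± 0.09, adjusted p = 0.0183) were under the fold cutoff, and the ratio of Slc2a2 to them differed by -1.54 and -1.61 with no overlap (exact permutation p = 0.1, the smallest possible).

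Treh rose most of the 4, from 12.1, 11.0 and 12.4 CPM to 46.5, 54.2 and 49.4 CPM (log2 fold change 2.08 ± 0.09, adjusted p = 6.02e-14). Its vehicle level in Wnt3-CM was below that in standard medium (65.2, 65.5 and 70.4 CPM). Khk rose from 180.2, 122 and 141 CPM to 395, 304 and 305 CPM (log2 fold change 1.18 ± 0.18, adjusted p = 0.00267). G6pc rose from 37.2, 17.4 and 22.2 CPM to 75.3, 60.7 and 51.7 CPM (log2 fold change 1.29 ± 0.34, adjusted p = 0.0353), but the call was lost on leaving out any of the libraries but EtOH replicate 1 (adjusted p from 0.0503 without 4-OHT replicate 3 to 0.115 without EtOH replicate 3). It was lost without a filter on low counts too (1.28, adjusted p = 0.0786), and kept with the column number as a replicate block (1.32, adjusted p = 1.61e-06). Lct rose from 9.31, 10.5 and 14.5 CPM to 16.2, 22.5 and 15.4 CPM (log2 fold change 0.66 ± 0.19, adjusted p = 0.0175), and was past the cutoffs no longer without EtOH replicate 1 (0.53, adjusted p = 0.0251), EtOH replicate 2 (0.60, adjusted p = 0.0687) or 4-OHT replicate 2 (0.48, adjusted p = 0.0234).

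EtOH replicate 1 was the highest vehicle library for both Slc2a5 (93.2, 49.1 and 55.7 CPM with EtOH, 139, 105 and 87.2 CPM with 4-OHT, log2 fold change 0.74 ± 0.33, adjusted p = 0.146) and Fbp1 (8.73, 4.25 and 4.16 CPM and 3.97, 2.82 and 4.02 CPM, log2 fold change -0.66 ± 0.30, adjusted p = 0.103). Without it Slc2a5 rose (1.07, adjusted p = 0.0122), and the difference of Fbp1 shrank to -0.22, adjusted p = 0.383. With the column number as a replicate block Slc2a5 rose (0.76, adjusted p = 4.85e-09) and Fbp1 fell (-0.63, adjusted p = 0.00220), which made 5 genes that rose and 2 that fell. Fbp1 fell without EtOH replicate 2 (-0.83, adjusted p = 0.0382) or EtOH replicate 3 (-0.85, adjusted p = 0.0297), with DESeq2 (-0.67, adjusted p = 0.0306) and without a filter (-0.67, adjusted p = 6.24e-04). The enterocyte markers summed to 4236 to 4838 CPM with EtOH and 6756 to 7374 CPM with 4-OHT, with 8 of 12 higher, and their part in the rises was not tested.

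Set against the effect in standard medium at day 10 (4-OHT against EtOH in each), the effect in Wnt3-CM was higher for 4 of 9 genes (7.11% of 14337 tested genes) and lower for 0 (6.21%). Treh differed by 1.44 ± 0.11 (adjusted p = 1.94e-08), G6pc by 1.64 ± 0.40 (adjusted p = 0.0148), Fbp1 by 1.27 ± 0.34 (adjusted p = 0.0121) and Lct by 1.22 ± 0.30 (adjusted p = 0.00806). For Slc2a5 the difference was 1.21 ± 0.43 (adjusted p = 0.0667), and it passed without Wnt3-CM EtOH replicate 1 (1.55, adjusted p = 0.0192), with DESeq2 (1.21, adjusted p = 0.0307) and with the column number as a replicate block (1.25, adjusted p = 7.86e-07). The fall of Slc2a2 differed between the media by -0.45 ± 0.13 (adjusted p = 0.0167), under the fold cutoff. Mean vehicle levels in Wnt3-CM and in standard medium were 5.71 and 24.6 CPM for Fbp1 and 25.6 and 104 CPM for G6pc. With 4-OHT they were 3.60 and 6.43 CPM for Fbp1 and 62.5 and 81.3 CPM for G6pc. The Treh vehicle was lower in Wnt3-CM too, and the Lct vehicle was not (11.4 and 9.21 CPM). The 2 media are in separate count tables, and a difference between the tables cannot be told apart from the medium in the levels, though each effect is measured within its own table.

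Other sugar genes in Wnt3-CM included the related transporters Slc5a11 (from 0.210 to 5.86 CPM) and Slc5a4b (from 3.58 to 26.2 CPM, log2 fold change 2.87 ± 0.13, adjusted p = 4.43e-13), in a list where 6 of 9 rose and 1 fell, where 9.45% of all genes rose and 7.42% fell. Of 5 sugar-responsive factors and targets 1 fell, Txnip, from 909.6 to 296 CPM (log2 fold change -1.62 ± 0.07, adjusted p = 6.42e-14), and 0 rose. Of 7 tested genes of glucose release and gluconeogenesis 2 fell and 1 rose. Those that fell open gluconeogenesis, pyruvate carboxylase (Pcx from 109.5 to 45.6 CPM, log2 fold change -1.26 ± 0.07, adjusted p = 7.19e-12) and Pck2 (from 235 to 127 CPM, log2 fold change -0.89 ± 0.07, adjusted p = 5.06e-10), and the 1 that rose was the muscle-type Fbp2 (from 139.7 to 253 CPM, log2 fold change 0.86 ± 0.10, adjusted p = 1.75e-05). Of 7 fructose and polyol genes 2 rose and 0 fell, and of 6 galactose genes 1 rose and 0 fell.

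In D173A organoids at day 7 Slc2a2 did not fall with 4-OHT. The libraries that stood apart come first. Slc2a2 was 71.8, 113 and 110.1 CPM with EtOH and 91.8, 172.9 and 154 CPM with 4-OHT, in column order, and in each group the library numbered 1 was the lowest for Slc2a2, Treh and Lct and the highest for Slc5a1. The liver markers Alb, Ttr, Serpina1a and Cyp2e1 summed to 10.6 to 10.9 CPM with EtOH, to 28.6 and 25.9 CPM in the 4-OHT libraries numbered 1 and 2, and to 968 CPM in the 4-OHT library numbered 3, of which Alb made up 852 CPM. Slc2a2, Khk, Fbp1 and G6pc are liver genes too, and the part of that RNA in their values was not tested. These columns name a line and E or T but no genotype, and were assigned to the D173A groups by elimination, as the only other organoid line with EtOH and 4-OHT groups.

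The log2 fold change of Slc2a2 was 0.51 ± 0.31 (adjusted p = 0.301) and its groups overlapped. Slc2a2 was higher with 4-OHT in 3 of 3 pairs matched by column number, a number that the labels do not tie to samples. With the column number as a replicate block the log2 fold change was 0.49, adjusted p = 2.32e-05, under the fold cutoff. Without both libraries numbered 1, a choice made after their values were seen, it was 0.53, adjusted p = 4.30e-06, still under the fold cutoff, and without the 4-OHT library numbered 3 0.43, adjusted p = 0.496. Sis (-0.02 ± 0.08, adjusted p = 0.878) and Slc5a1 (0.02 ± 0.11, adjusted p = 0.911) were close to 0. The ratio of Slc2a2 to Lct differed by -2.32 with no overlap (exact permutation p = 0.1), and those to Sis (0.51, p = 0.3) and Slc5a1 (0.45, p = 0.5) overlapped.

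Lactase rose by far the most. Lct was 16.6, 34.6 and 34.9 CPM with EtOH and 139, 233 and 211 CPM with 4-OHT, 6.77-fold higher (log2 fold change 2.76 ± 0.39, adjusted p = 0.00823), and it rose in every fit that left out 1 library. Fbp1 rose from 121, 106 and 103 CPM to 147, 178 and 193 CPM (log2 fold change 0.65 ± 0.10, adjusted p = 0.00154), and was under the fold cutoff without EtOH replicate 3 (0.58, adjusted p = 0.00882) or without the 4-OHT library numbered 3 (0.56, adjusted p = 0.00479). These were 2 of 9 genes that rose (6.05% of 15457 tested genes did), and 0 fell (6.25%). Without both libraries numbered 1 the count was 4, with Treh (0.64, adjusted p = 1.00e-07) and Slc2a5 (0.72, adjusted p = 1.26e-08). Treh also passed without the 4-OHT library numbered 1 alone (0.79, adjusted p = 0.00340), and Slc2a5 without the EtOH library numbered 1 alone (0.79, adjusted p = 2.11e-04). Khk (0.35 ± 0.09, adjusted p = 0.0183) and G6pc (0.42 ± 0.09, adjusted p = 0.00618) were under the fold cutoff. The enterocyte markers summed to 10558 to 10657 CPM with EtOH and 16611 to 21637 CPM with 4-OHT, with 7 of 12 higher, and their part in the result was not tested. Under the block Treh (0.52, adjusted p = 3.73e-04) and Slc2a5 (0.53, adjusted p = 0.0340) had an adjusted p below 0.05 as well, both under the fold cutoff. Outside the 9 genes, 3 of 10 tested transporters of the Slc2a and Slc5a families rose and 0 fell (of all genes 6.05% and 6.25%), led by the inositol transporter Slc5a11 (from 19.2 to 72.3 CPM, log2 fold change 1.91 ± 0.25, adjusted p = 0.00323). Txnip fell from 614 to 383 CPM (log2 fold change -0.68 ± 0.06, adjusted p = 1.74e-05), 1 of 5 sugar-responsive factors and targets, of which 0 rose. Of 7 fructose and polyol genes 3 rose and 0 fell, and of 8 genes of glucose release and gluconeogenesis 1 rose and 1 fell.

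Compared with the Cdk19 ko/ko organoids of the time course at day 7, the 4-OHT effect in D173A organoids was higher for 5 of 9 genes (4.90% of 15636 tested genes) and lower for 0 (6.25%). For Slc2a2 it was higher by 1.54 ± 0.35 (adjusted p = 0.0132). For Lct the difference was 3.28 ± 0.55 (adjusted p = 0.00418), for Slc2a5 2.19 ± 0.39 (adjusted p = 0.00481), for Fbp1 2.01 ± 0.24 (adjusted p = 2.14e-04) and for G6pc 1.36 ± 0.32 (adjusted p = 0.0158). These 5 passed in each of the 12 fits that left out 1 library and without both libraries numbered 1 (Slc2a2 1.57, adjusted p = 1.46e-06). Sis, Slc5a1, Treh and Khk did not pass, with differences between -0.10 (Sis) and 0.20 (Khk). The lines are also different ones, in separate tables, and line and Cdk19 allele cannot be told apart.

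**Figure D5:**
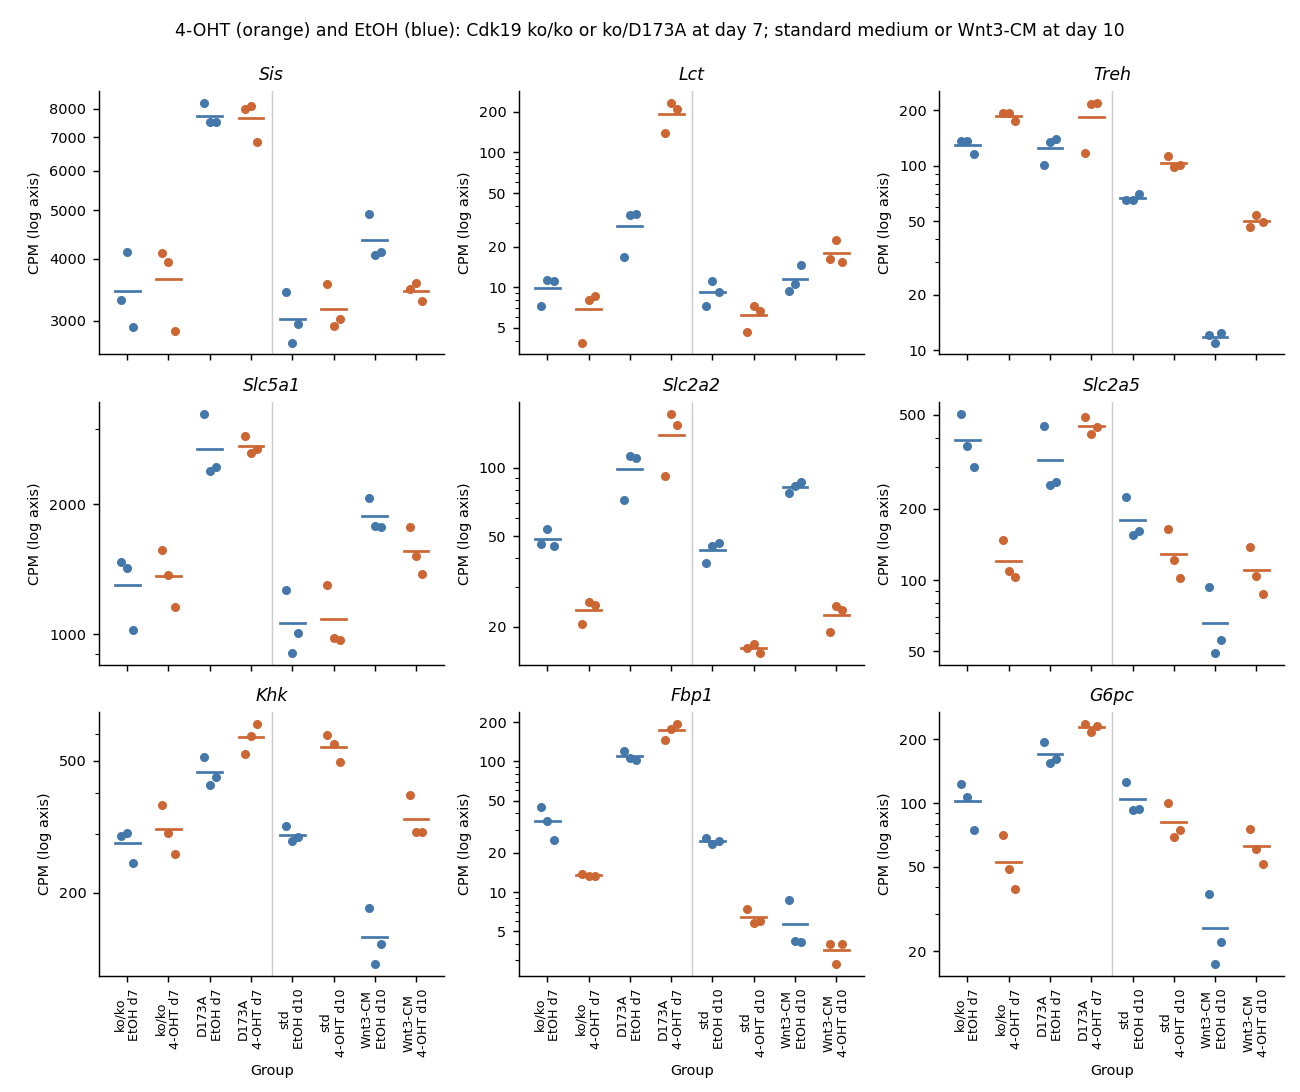
CPM (log axis) of the 9 genes with EtOH (blue) and 4-OHT (orange), 1 point for each library and a bar at the group mean, in Cdk19 ko/ko and D173A organoids at day 7 (left of the line) and in standard medium and Wnt3-CM at day 10 (right). Slc2a2 is lower with 4-OHT in the time course and in Wnt3-CM but not in D173A organoids, where Lct reaches 139, 233 and 211 CPM with 4-OHT.

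In IECs from mice 0 of the 9 genes passed the cutoffs with edgeR after the filter on low counts in DKO against VilCre (0.856% of 15182 tested genes were lower and 0.646% higher). With edgeR 6 of the 9 had an unadjusted p under 0.05, as did 3017 of all genes, and the count depended on the method. So did the count over all genes, at 228 in the fit above, 859 with DESeq2 and 1103 with edgeR without a filter. The shares above hold for the first of these only. DESeq2 called 3 of 9, Sis (-0.94, adjusted p = 0.00420), Slc5a1 (-0.88, adjusted p = 4.00e-04) and G6pc (1.07, adjusted p = 0.00520). edgeR without a filter on low counts called 4, all lower in DKO IECs, Sis (-0.98, adjusted p = 0.00159), Slc5a1 (-0.92, adjusted p = 8.67e-04), Slc2a2 (-0.61, adjusted p = 0.0220) and Slc2a5 (-0.62, adjusted p = 0.00564). Slc5a1 was 4115, 3669 and 3888 CPM in VilCre and 1499.5, 2339.9 and 2513 CPM in DKO IECs (log2 fold change -0.88 ± 0.20, adjusted p = 0.0938). Sis was 4319, 4142 and 4021 CPM and 1291, 2539 and 2643 CPM (log2 fold change -0.95 ± 0.27, adjusted p = 0.134), with DKO replicate 1 the lowest for both genes. Neither gene overlapped between the groups.

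Slc2a2 was 723, 645 and 612 CPM and 323, 447 and 561 CPM, also with no overlap (log2 fold change -0.57 ± 0.20, adjusted p = 0.186), and the log2 fold change of Slc2a5 was -0.59 ± 0.14 (adjusted p = 0.101). The ratio of Slc2a2 to Sis was higher in DKO IECs, by 0.41, and to Slc5a1 by 0.31, in both with no overlap (exact permutation p = 0.1). To Lct it was lower, by -0.19, with no overlap either (exact permutation p = 0.1). Lct (-0.39 ± 0.18, adjusted p = 0.284) and Fbp1 (-0.50 ± 0.17, adjusted p = 0.184) did not overlap either and had lower means in DKO IECs. G6pc had a higher mean, at 29.4, 52.8 and 38.7 CPM and 56.9, 88.7 and 107 CPM (log2 fold change 1.06 ± 0.29, adjusted p = 0.137), and passed the cutoffs without VilCre replicate 2 (1.32, adjusted p = 0.0322). Treh (-0.09 ± 0.13, adjusted p = 0.697) and Khk (-0.22 ± 0.18, adjusted p = 0.523) overlapped.

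The IEC groups also differed in immune markers. These (Ptprc, Cd3e, Cd79a, Igkc and Jchain) summed to 38.9 to 204 CPM in VilCre and 480.2 to 769 CPM in DKO IECs, while mesenchymal markers overlapped, at 3.68 to 685 and 306 to 596 CPM. Enterocyte markers overlapped (41426 to 44236 and 40936 to 49931 CPM), and the part of these cells in the sugar gene levels was not tested. Of the other sugar genes counted, Txnip passed the cutoffs on the lower side in DKO IECs, from 305 to 155 CPM (log2 fold change -0.97 ± 0.15, adjusted p = 0.0361), 1 of 228 genes called in all. It did not pass under the replicate block (-0.96, adjusted p = 0.0839), where 8 genes did, nor without VilCre replicate 1 (-1.10, adjusted p = 0.0786), VilCre replicate 3 (-0.98, adjusted p = 0.178), DKO replicate 1 (-0.94, adjusted p = 0.0935) or DKO replicate 3 (-0.97, adjusted p = 0.101).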

How the data were processed

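RNA was sequenced as paired-end reads, which were counted per gene. The submitters' notes name STAR 2.5.2, featureCounts of Subread 1.6.3 and mm10, and strandedness and the annotation version are not given in the sources used here. The authors deposited raw counts per gene, which were used as deposited. Columns were matched to samples by the labels. Wnt3-CM columns were matched to groups by name and the D173A organoid columns by elimination, and 6 IEC columns of D173A mice, whose names did not show their group, were not used, so Cdk19 ko/D173A against wt/D173A IECs were not compared.

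Counts were tested with edgeR 4.0.16 (R 4.3.3; filterByExpr, TMM, robust quasi-likelihood fits), with all groups of a table in 1 fit (time course, 5 lines), a pair of groups (Wnt3-CM, D173A, IECs), or 12 libraries of 2 tables for effects between them. The Benjamini-Hochberg adjustment covered all genes tested, and SE was taken from the ratio of the fold change (log2) to the square root of the F statistic. Called means adjusted p under 0.05 and fold over 1.5. Ratios used counts plus 0.5 and an exact permutation test. CPM uses TMM library sizes, and exon lengths and positions come from GENCODE vM21. Named were all 9 members, the 5 genes most correlated with Slc2a2 among those averaging at least 50 counts, and the called genes of each list with the largest changes. Members and lists were chosen with earlier results of these data known. Same-numbered libraries did not deviate together in every pair where the labels give the numbers (lowest r from -0.403 to 0.0755). In Wnt3-CM and D173A organoids, whose numbers come from the column names, every pair did (lowest r 0.124 and 0.131), so a replicate block by column number, added after the values were seen, is given beside the results it changes. Scripts were tested on simulated data. Alternatives were no filter, upper quartile scaling, DESeq2 1.42.0, each library left out, a replicate block, only the groups compared, and counts plus 5 in ratios. The lowest count of a member in a library was 58 (Lct in the time course, Fbp1 in Wnt3-CM), so counting error is larger for Lct, Fbp1 and G6pc in their low groups.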

Additional observations from a re-analysis of the deposited data

Results flagged for a closer look

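11 differences between groups in the 4-OHT effect passed both cutoffs in edgeR's test of the difference itself, each a difference of log2 fold changes with its SE. For the days the fit held all 24 libraries of the time course, and for the other 2 sets it held 12 libraries. Between day 10 and day 7 they were Slc2a5, 1.23 ± 0.38 (adjusted p = 0.0348), and Khk, 0.738 ± 0.18 (adjusted p = 0.00725), with the higher effect at day 10. Of these the Slc2a5 call was lost on leaving out any of 7 of the 12 libraries compared. It was also lost without a filter on low counts and with only the compared groups in the fit. Between Wnt3-CM and standard medium at day 10 they were Lct, 1.22 ± 0.30 (adjusted p = 0.00806), Treh, 1.44 ± 0.11 (adjusted p = 1.94e-08), Fbp1, 1.27 ± 0.34 (adjusted p = 0.0121), and G6pc, 1.64 ± 0.40 (adjusted p = 0.0148), with the higher effect in Wnt3-CM. Between D173A and Cdk19 ko/ko organoids at day 7 they were Lct, 3.28 ± 0.55 (adjusted p = 0.00418), Slc2a2, 1.54 ± 0.35 (adjusted p = 0.0132), Slc2a5, 2.19 ± 0.39 (adjusted p = 0.00481), Fbp1, 2.01 ± 0.24 (adjusted p = 2.14e-04), and G6pc, 1.36 ± 0.32 (adjusted p = 0.0158), with the higher effect in D173A organoids. The last 2 sets compare separate count tables, and for D173A also separate lines, which cannot be told apart from the medium or the allele. No group had more than 3 libraries, so no library was tested as an outlier.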

How the results depend on the processing

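The number of sugar genes past the cutoffs was within 1.5 times its value under every alternative at days 3, 5, 7 and 10 and in the Cdk8KO, Cdk19KO and control line comparisons, and under a replicate block in all 12 comparisons of libraries that the labels number. It was 1 in place of 2 for the effect at day 10 minus day 7 without a filter and with only these groups in the fit. In IECs it was 4 without a filter and 3 with DESeq2 in place of 0. Over all genes in IECs 228 were called, 1103 without a filter, 859 with DESeq2 and 8 under the replicate block. Without both D173A libraries numbered 1 it was 4 in place of 2. With 1 library left out it ran from 2 to 4 in DKO organoids, 1 to 2 for day 10 minus day 7, 3 to 5 in Wnt3-CM, 1 to 3 in D173A organoids and 0 to 1 in IECs, where all genes called ran from 3 to 1566. The 36 ratio differences moved by less than the replicate SD with counts plus 5. No alternative scaling moved the median of all genes by over 0.1. The cause of these moves was not tested. Signs turned only for values near 0, none of which was past the cutoffs. They were, without a filter Slc2a2 (DKO minus the sum) -0.00505, Treh (D173A minus ko/ko) -0.00621, with only these groups Sis (day 10 minus day 7) 0.00341, with upper quartile scaling Slc5a1 (D173A) -0.0249, Treh (D173A minus ko/ko) -0.0108, with the block by column number Treh (D173A minus ko/ko) -0.0190, without both D173A libraries numbered 1 Slc5a1 (D173A minus ko/ko) 0.0561. With 1 library left out the ranges of log2 values that changed sign were, for Cdk8KO, Lct -0.13 to 0.14. For DKO minus the sum, Sis -0.0118 to 0.16, Slc2a2 -0.0425 to 0.0906. For day 7, Sis -0.0317 to 0.21, Slc5a1 -0.0818 to 0.16, Khk -0.00409 to 0.23. For day 10, Sis -0.0262 to 0.16, Slc5a1 -0.12 to 0.18. For day 10 minus day 7, Sis -0.14 to 0.0975, Lct -0.32 to 0.16, Slc5a1 -0.19 to 0.11. For EtOH day 10 against day 7, Khk -0.00173 to 0.13, G6pc -0.14 to 0.18, Lct -0.29 to 0.0533. For D173A, Sis -0.0619 to 0.0526, Slc5a1 -0.0741 to 0.16. For D173A minus ko/ko, Treh -0.13 to 0.26, Sis -0.25 to 0.00670, Slc5a1 -0.16 to 0.10. For IECs, Treh -0.16 to 0.00172. The block by the labels' numbers changed no call of the 9 genes. The replicate block by column number, within each table, gave 7 in place of 5 in Wnt3-CM, 2 as before in D173A organoids, 5 in place of 4 for Wnt3-CM minus standard medium and 5 as before for D173A minus ko/ko, and the calls it changed were those of Slc2a5 and Fbp1 given in the report. Column numbers could not be tied to the samples of the labels. Cdk19 ko/D173A against wt/D173A IECs were not run.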
